A study of Mus musculus with 35 samples.

Results

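The ionotropic glutamate receptors of the AMPA and NMDA classes were followed through their 9 main subunit genes, 4 of them AMPA (Gria1, Gria2, Gria3 and Gria4) and 5 of them NMDA (Grin1, Grin2a, Grin2b, Grin2c and Grin2d), in RNA-seq counts of mouse medulla and cervical spinal cord (CSC). The genes were chosen by symbol and not by their values, and all 9 were among the 35976 gene names counted in each of 35 libraries from 18 mice. SCA7 mice carry an expanded CAG repeat knocked into the mouse Atxn7 gene, so the polyglutamine protein is made from the gene's own locus wherever Atxn7 is active, and WT mice are their wild-type littermates. At 9 weeks, 5 WT and 5 SCA7 mice each gave a medulla and a CSC library. The 5-week group held 2 mice of each genotype, sampled in both tissues. At postnatal day 8 (P8), 2 SCA7 mice gave both tissues, 1 WT mouse gave both, and another WT mouse gave a medulla library only. The comparisons asked how the subunits changed from P8 to the adult ages, whether they differed between the tissues, and whether they differed between SCA7 and WT mice.

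AMPA receptors carry the fast part of glutamate transmission as assemblies of GluA1 to GluA4, the products of Gria1 to Gria4, and GluA2 that has been edited at the RNA level makes the channel nearly impermeable to calcium. NMDA receptors need GluN1, from Grin1, together with GluN2 subunits, from Grin2a to Grin2d, which set how strongly magnesium blocks the channel and how long it stays open. In rodent brain, Grin2b and Grin2d are known as early subunits and Grin2a and Grin2c as later ones, with Grin2c best known from cerebellar granule cells and also made by astrocytes, and Grin2d from brainstem and spinal interneurons. Glutamate drive through both classes reaches the motor neurons that move the tongue, the throat and the diaphragm.

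Depth fell into 2 ranges. In 15 libraries, called deep here, the total was 28969003 to 99353286 counts, and in the other 20, called shallow, it was 95917 to 396417. Levels are given as CPM, the counts relative to a library's total after TMM scaling between libraries, and the precision of a member followed its count. Grin2c had 248 to 3821 counts in the deep libraries and 1 to 21 in the shallow ones, Grin2d 1457 to 11263 and 1 to 40, and Grin1 6708 to 36043 and 22 to 134. Grin2a was at 0 in 16 of the 20 shallow libraries, where 0 counts allow up to 7.57 to 31.3 CPM, and Grin2b was at 0 in 8 of them, so neither could be followed there. The 9-week medulla library of SCA7 mouse 2 stood apart, with 64.9% of its 396417 counts in 10 genes and no count of Gria4. Atxn7 itself was not called between genotypes at 9 weeks, with a log2 change of 0.29 in medulla and 0.41 in CSC, and the counts do not separate the alleles.

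The P8 tissue labels went against 4 of the 5 Hox genes listed as position markers of the neural axis. Hoxc6, a Hox gene of the cervicothoracic cord, was at 39.4 to 62.7 CPM in the 4 P8 libraries labelled medulla and at 0 to 2.71 CPM in the 3 labelled CSC. In the 9-week libraries Hoxa7 had medians of 0.0273 CPM in medulla (highest 27.3, from 4 counts in the library of SCA7 mouse 2) and 28.8 in CSC, while at P8 it was at 18.3 to 50.8 CPM under the medulla label and at 0 to 0.649 under the CSC label. Hoxb8 and Hoxb7 were also higher in each P8 library labelled medulla than in any labelled CSC. Hoxc5 did not separate the P8 labels, at 9.15 to 50.9 CPM under medulla and 8.11 to 22.0 under CSC, and neither did Pou4f1, at 12.4 to 36.6 and 7.32 to 55.8 CPM. Barhl1 was at 2.81 to 18.3 and 11.8 to 80.6 CPM at P8, and at medians of 7.89 CPM in medulla and 1.10 in CSC at 9 weeks. The labels were kept as given, P8 libraries are called by their label, and the changes of the members from P8 are also given with the P8 libraries of the other label. The age label itself held for genes of immature neurons, since 5 of 6 such genes, among them Tubb2b and Sox4, fell from P8 to 9 weeks in both tissues.

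**Figure D1:**
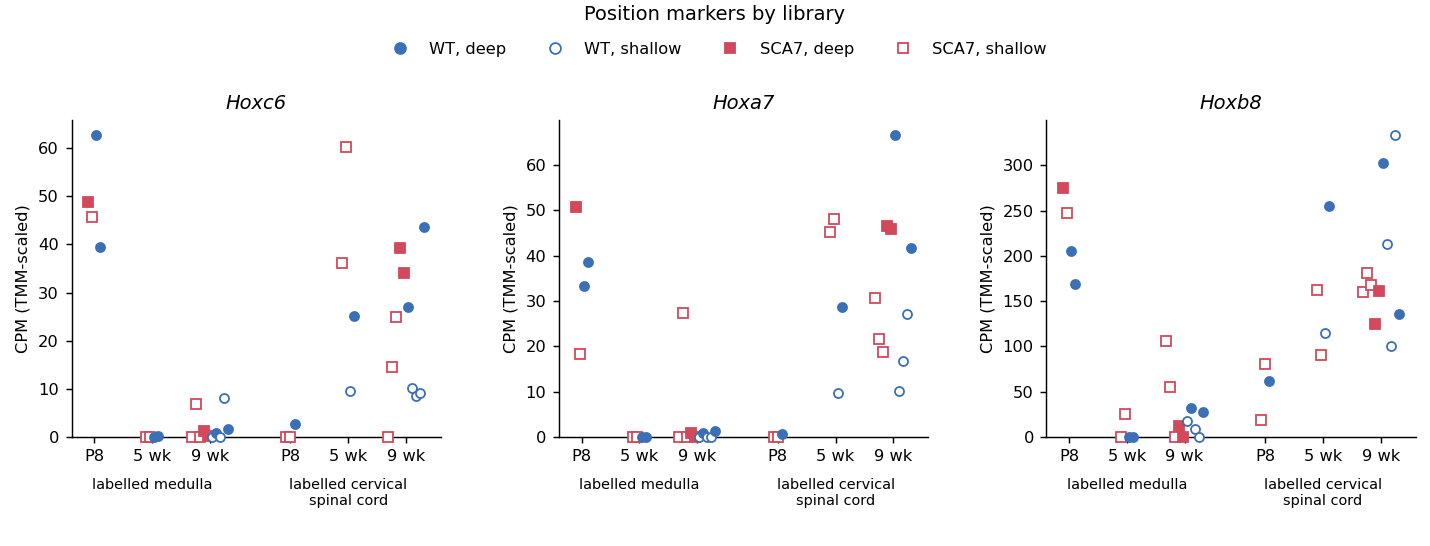
Position markers in every library, in TMM-scaled CPM on the vertical axes, by age and tissue label on the horizontal axes, with genotype and depth shown by the symbols. Hoxc6 and Hoxa7 are high in all 4 P8 libraries labelled medulla and at 0 to 2.71 CPM in the 3 labelled CSC, while at 5 and 9 weeks their high values lie mostly under the CSC label, and Hoxb8 is at 168 to 275 CPM in the former P8 libraries and at 18.9 to 80.6 CPM in the latter.

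Grin2c and Grin2d carried most of the called changes with age, and Grin2c alone was called between the tissues at 9 weeks. By GENCODE (GRCm38), Grin2c lies on the minus strand of chromosome 11 from 115249169 to 115267243, and Grin2d on the minus strand of chromosome 7 from 45831883 to 45878378, where it overlaps Kdelr1 on the opposite strand. The other 7 lie on chromosomes 2, 3, 6, 9, 11, 16 and X. Grin1 (chromosome 2, 25291181 to 25319187) overlaps the antisense gene Grin1os, and because strand use is not stated for the counts, reads of a gene and of its overlapping partner on the other strand cannot be told apart. Letters just before the RefSeq start sites (GRCm38.p6) are shown for Grin2c and Grin2d, the 2 genes with opposite age changes. The Grin2c stretch, at chr11:115267268-115267297 on the minus strand, covers bases 54 to 25 before the start, and capitals mark the GC-box letters GGGCGG. It was placed to hold these letters, so the 2 stretches are not matched in position. The Grin2d stretch, at chr7:45866682-45866711 on the minus strand, is the last 30 bases before its RefSeq start and holds no such match. That start lies inside the GENCODE span of Grin2d, whose upstream end is at 45878378, and the letters before that end were not searched. The Grin2c window meets the upstream end of its GENCODE span at 115267243.
Grin2c: gctgGGGCGGgccgGGGCGGGGCGGaggcg
Grin2d: ctcatctctgtttccctccgtgtcggcccc

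In the 250 bases before each start, searched on both strands, Grin2c had 3 matches of GGGCGG, of which 2 share a G, and Grin2d had 0. Grin1, Gria2 and Gria4, the other members with a window, also had 0. Neither the Grin2c nor the Grin2d window held CCAAT or TATAAA. These are descriptions of letters and not of sites, and 32.7% of 32851 promoter windows of that length hold GGGCGG, 33.9% CCAAT and 12.4% TATAAA. The Grin2c window was 68.8% G and C with 15 CpG, the Grin2d window 54.4% with 9.

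Grin1, the obligatory NMDA subunit, had the highest level per length of the 9 in the deep libraries, at a median of 82.0 CPM per kilobase of exon in adult medulla (76.2 to 107, n = 6 libraries of 5 and 9 weeks), 78.2 in adult CSC (57.2 to 85.7, n = 5) and 81.2 at P8 (55.5 to 94.9, n = 4). Below it in adult medulla came Gria1 at a median of 31.3 CPM per kilobase, Gria4 at 29.6, Gria2 at 24.4 and Gria3 at 19.9. The ranges of these 4 AMPA genes overlapped, except that Gria3 (17.35 to 22.9) lay below Gria4 (23.5 to 30.6). Grin2c at 15.6 and Grin2d at 10.1 CPM per kilobase followed with ranges that overlapped each other. The upper end of Grin2c (20.2) reached into the ranges of Gria3 and Gria1, and that of Grin2d (15.1) into the range of Gria1 (from 13.9). Grin2b at 0.417 and Grin2a at 0.230 were far below with ranges that overlapped each other only. Adult CSC had the same order of groups, with Gria4 at 28.5, Gria2 at 23.1, Gria3 at 20.9, Gria1 at 17.9, Grin2d at 7.82, Grin2c at 7.17, Grin2b at 0.311 and Grin2a at 0.158 CPM per kilobase. At P8 Grin2d was at a median of 18.9 CPM per kilobase (13.7 to 26.0), above Gria3 at 14.4, while Grin2c was at 1.52 (1.35 to 3.42). The exon lengths used run from 4368 bases for Grin1 to 24787 for Grin2b and include untranslated parts.

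From P8 to 9 weeks the GluN2 genes changed in opposite directions. In medulla Grin2c rose 8.16-fold and Grin2d fell 2.37-fold, and in CSC Grin2d fell 2.43-fold while the 2.13-fold higher level of Grin2c missed the threshold. Of the 4 AMPA genes and Grin1, none passed the test between P8 and 9 weeks in either tissue with all libraries in the fit. The tests were edgeR's quasi-likelihood test with Benjamini-Hochberg adjustment over all genes, called at an adjusted p under 0.05, with all 9 members above the count filter in each comparison.

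Grin2c, whose product gives NMDA receptors with weak magnesium block, was at 8.33 and 6.81 CPM in the P8 WT libraries labelled medulla and at 6.93 and 18.3 CPM in the SCA7 ones. In 9-week medulla it was at 34.2, 87.7, 64.7, 168 and 77.4 CPM in the WT mice and at 8.18, 40.9, 64.9, 44.0 and 52.8 CPM in the SCA7 mice. Every WT value and 4 of the 5 SCA7 values at 9 weeks lay above all 4 P8 values, and the exception was the shallow library of SCA7 mouse 1, which rests on 1 count. The change was 3.03 on the log2 scale (SE 0.33, edgeR adjusted p = 2.19e-06), and it stayed past the threshold in 11 of 11 other fits, which changed 1 choice of tool, scaling, filter or samples each, where it ran from 2.46 to 3.53 with adjusted p of 3.44e-14 to 0.0184. With the P8 libraries of the other label it was 2.54 (adjusted p = 0.00144). Gabra6, a gene of cerebellar granule cells, was at 0 to 0.308 CPM in P8 medulla and 0 to 24.0 CPM in 9-week medulla. In CSC it was at 0 to 0.168 CPM at P8 and 0 to 0.194 CPM at 9 weeks. With the other P8 label, 1 of 8 cerebellar neuron markers was called higher in 9-week medulla and 2 lower. Their part in the Grin2c change was not tested. At 5 weeks Grin2c was at 80.1 and 102 CPM in WT medulla and 87.6 and 42.2 CPM in SCA7 medulla, all above P8, with a log2 change of 3.33 (SE 0.43, adjusted p = 9.91e-05), or 2.83 with the other P8 label (adjusted p = 0.00468).

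In CSC the Grin2c values were lower and the P8 reference differed. The P8 libraries labelled CSC had 17.2 CPM in the WT mouse, from a deep library, and 5.41 and 7.32 CPM in the SCA7 mice, from shallow libraries. At 9 weeks WT CSC had 36.1, 40.6, 25.1, 27.0 and 40.0 CPM, and SCA7 CSC had 7.64, 7.22, 12.4, 16.3 and 18.8 CPM. The WT values thus all lay above the P8 WT value, while those of the SCA7 mice overlapped the P8 range. Fitted over both genotypes, the log2 change was 1.09 (SE 0.40, edgeR adjusted p = 0.0976), and 1 of 10 other fits passed, with adjusted p of 0.00506 to 0.461. With the P8 libraries of the other label it was 1.62 (adjusted p = 6.81e-04). Averaged over both tissues, and so with the medulla change included, the Grin2c change was 2.18 (edgeR adjusted p = 4.26e-07). That fit had no mouse term and took the tissues of a mouse as independent. At 5 weeks CSC had 28.8 and 50.1 CPM in WT and 9.03 and 36.1 CPM in SCA7 mice, with a log2 change from P8 of 1.57 (adjusted p = 0.0602; 0.000806 to 0.451 over the other fits), which passed with the other P8 label (2.12, adjusted p = 0.00342) and without 5-week SCA7 mouse 1 (1.85, adjusted p = 0.0329).

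Grin2d, the subunit of slowly closing NMDA receptors, was at 106 and 84.2 CPM in the P8 WT libraries labelled medulla and at 126 and 128 CPM in the SCA7 ones. In 9-week medulla the WT mice had 59.9, 63.8, 48.5, 80.1 and 61.5 CPM and the SCA7 mice 8.18, 13.6, 14.4, 45.4 and 46.0 CPM. All 10 values at 9 weeks lay below all 4 at P8. The log2 change was -1.24 (SE 0.21, edgeR adjusted p = 2.44e-04), past the threshold in 11 of 11 other fits (log2 of -1.90 to -0.56, adjusted p of 5.26e-08 to 0.0483). It was -1.41 with the other P8 label (adjusted p = 0.00243) and -0.60 in deep WT libraries alone, where it missed the threshold (adjusted p = 0.0544).

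In the libraries labelled CSC, Grin2d was at 160 CPM in the P8 WT mouse and 108 and 58.6 CPM in the P8 SCA7 mice. The 9-week WT values were 60.4, 50.7, 58.7, 81.0 and 46.5 CPM and the SCA7 values 38.2, 43.3, 56.0, 42.3 and 48.1 CPM. The lowest P8 value, from a shallow library of 105968 counts, lay within the adult range and the other 2 above it. The log2 change was -1.28 (SE 0.31, edgeR adjusted p = 0.0105), past the threshold in 7 of 10 other fits (adjusted p of 5.45e-04 to 0.125), and it missed the threshold without P8 SCA7 mouse 1 (-0.99, adjusted p = 0.224). With the other P8 label it was -1.08 (adjusted p = 0.00415). At 5 weeks Grin2d was at 93.2 and 62.4 CPM in WT medulla, 35.04 and 33.8 in SCA7 medulla, 19.2 and 64.7 in WT CSC and 9.03 and 72.2 in SCA7 CSC. Against P8 it was lower in both tissues, at -1.13 in medulla (SE 0.31, adjusted p = 0.0325; 0.00213 to 0.428 over the other fits) and -1.42 in CSC (SE 0.40, adjusted p = 0.0417; 0.00511 to 0.439). Neither call held with the other P8 label, at -1.29 in medulla (adjusted p = 0.0645) and -1.15 in CSC (adjusted p = 0.0551). The medulla call was lost without 5-week SCA7 mouse 1 or 2, 5-week WT mouse 2, P8 WT mouse 1 or 2 or P8 SCA7 mouse 1 (adjusted p of 0.0602 to 0.178), and the CSC call without 5-week SCA7 mouse 1, 5-week WT mouse 1 or P8 SCA7 mouse 1 (0.0908 to 0.280). The medulla change was -0.30 in WT mice alone, and the 5-week SCA7 libraries were all shallow. Over all genes, the median log2 change from P8 to 5 weeks in medulla was -0.57 with the size factors of DESeq2. It was -0.66 there with library totals, and in CSC it was -0.12 and -0.32 in that order.

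**Figure D2:**
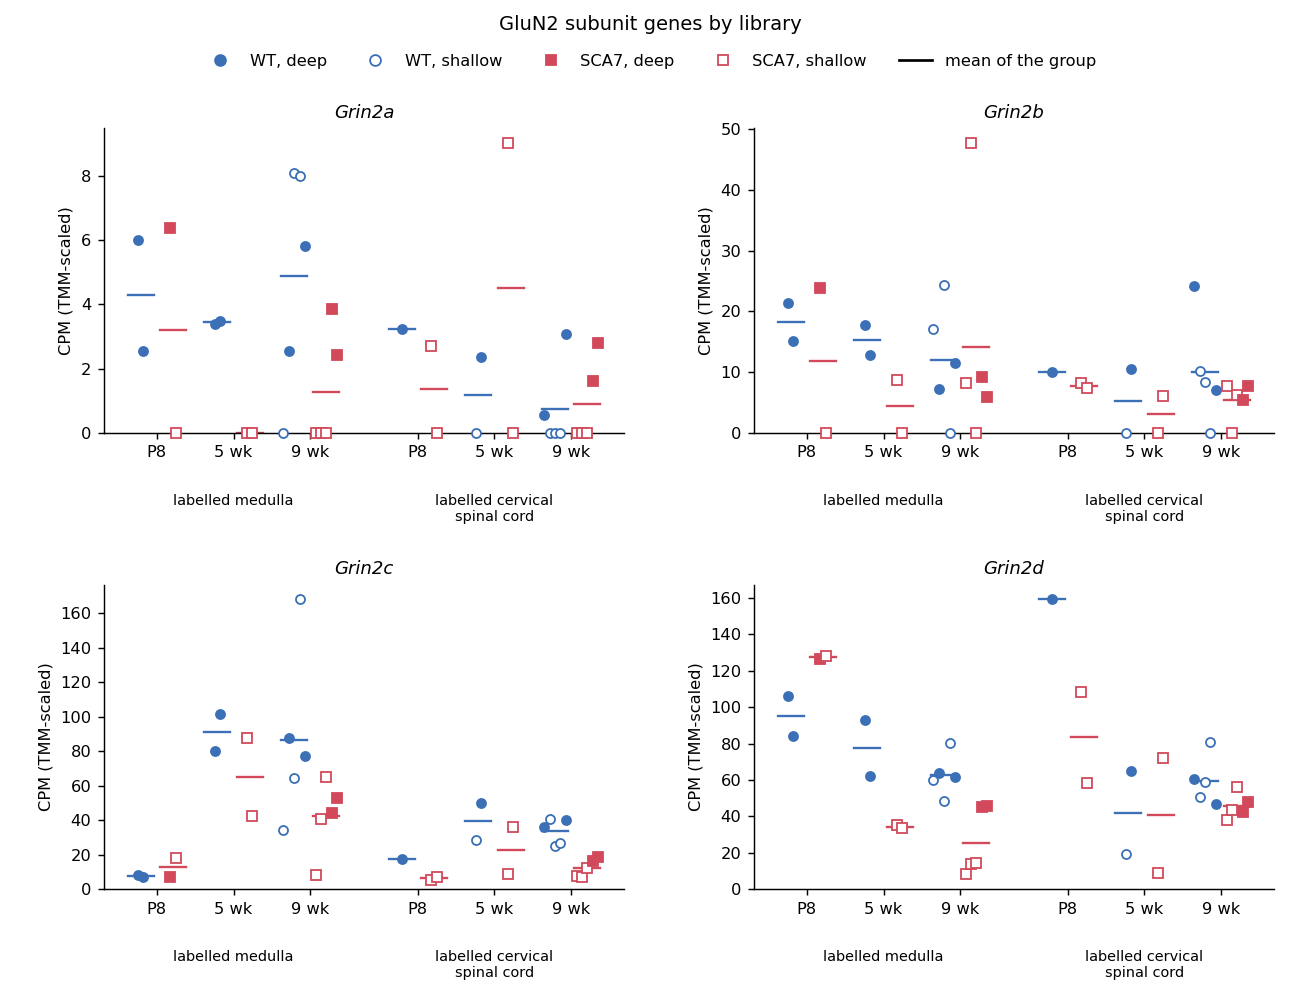
GluN2 genes in every library, in TMM-scaled CPM on the vertical axes, by age and tissue label, with WT and SCA7 mice and deep and shallow libraries marked by the symbols. Grin2c is low at P8 and highest in adult medulla, Grin2d is highest at P8, and the Grin2a and Grin2b values of shallow libraries rest on 0 to 7 counts.

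Grin2b and Grin2a, the subunits named in the classical postnatal switch of forebrain NMDA receptors, were low in both tissues at each age. Grin2b was at 21.4, 15.1 and 23.8 CPM in the 3 deep P8 libraries labelled medulla, at 10.1 CPM in the deep P8 library labelled CSC, and at 5.90 to 17.7 CPM in deep adult medulla. It fell from P8 to 9 weeks in medulla by 1.17 on the log2 scale (SE 0.36, edgeR adjusted p = 0.0183), a call that held in 5 of 11 other fits and that was lost with the other P8 label (-0.10, adjusted p = 0.943). It was also lost without 9-week WT mouse 2 or 5, 9-week SCA7 mouse 4 or 5 or P8 WT mouse 1 (adjusted p of 0.0876 to 0.158), and without P8 SCA7 mouse 1 the estimate turned to 4.83 with an SE of 6.86. Grin2a was at 2.55 to 6.37 CPM in the deep P8 libraries and at 0.558 to 5.83 CPM in the deep adult ones, which overlap. Its log2 change was -0.56 in medulla (adjusted p = 0.282) and -0.54 in CSC (adjusted p = 0.834), and 0.38 and -1.39 with the other P8 label (adjusted p = 0.807 and 0.0513), so a rise of Grin2a with age was not detected here.

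As shares of the 4 GluN2 genes' counts per kilobase in the deep libraries, Grin2d made up 85.5% to 88.2% at P8 (n = 4) and 32.6% to 65.8% in the adult libraries (n = 11). Grin2c made up 5.90% to 11.4% at P8 and 30.9% to 65.0% in adults. Neither pair of ranges overlapped. Grin2b made up 1.35% to 4.28% at P8 and 1.04% to 5.43% in adults, and Grin2a 0.722% to 1.99% and 0.207% to 1.55%, so both remained small. Among the 4 AMPA genes, Gria3 had a share that went from 12.1% to 14.8% at P8 to 16.5% to 26.8% in adults without overlap, while the shares of Gria1, Gria2 and Gria4 overlapped between the ages.

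**Figure D3:**
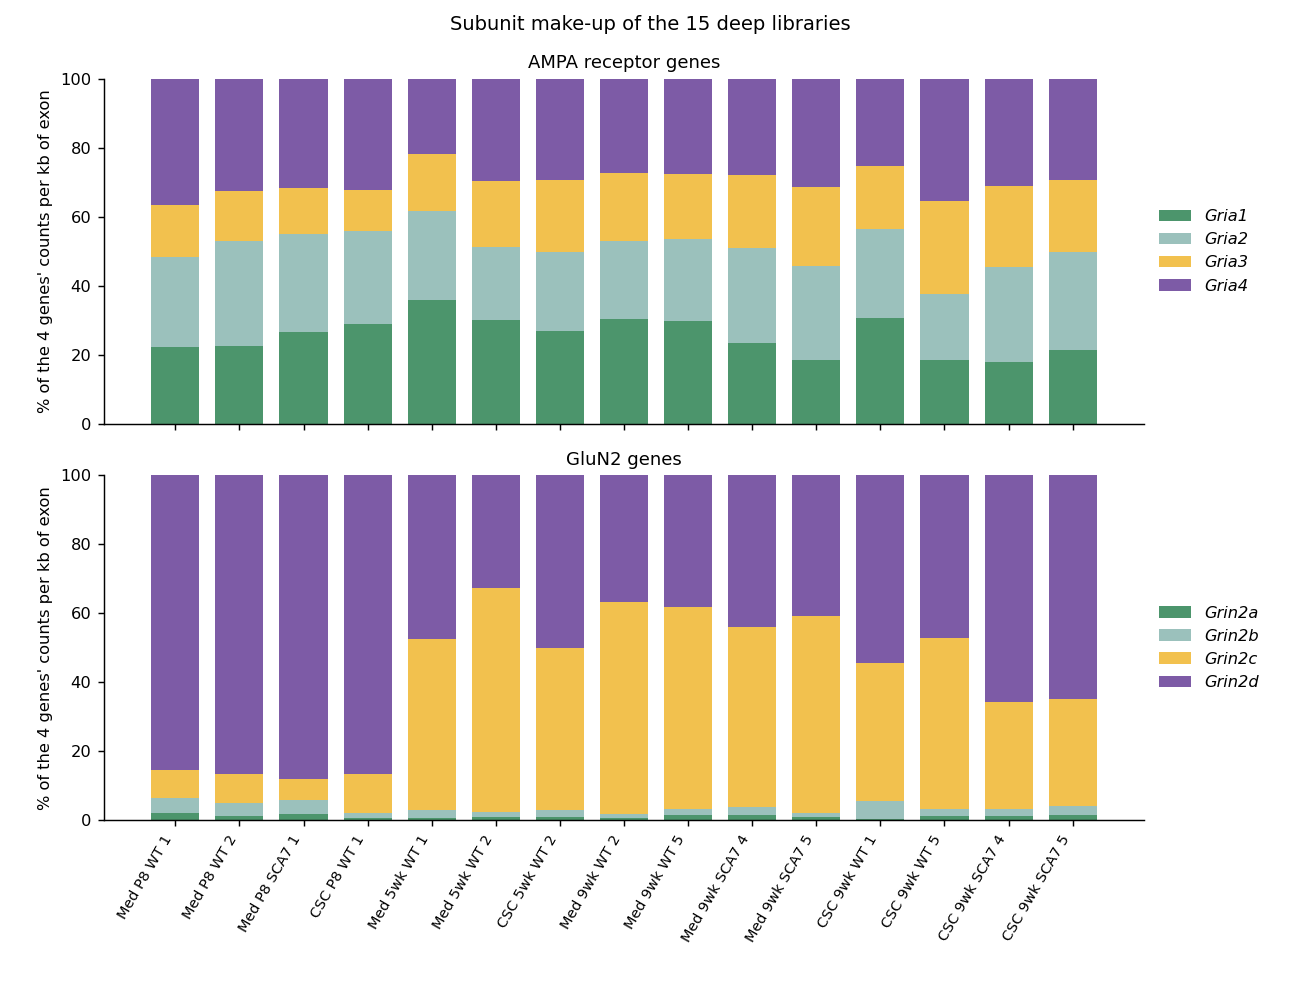
Share of each gene among the 4 AMPA genes (upper) and the 4 GluN2 genes (lower), as a percentage of their counts per kilobase of exon on the vertical axis, in the 15 deep libraries on the horizontal axis. Grin2d fills over 85% of the GluN2 bar in the 4 P8 libraries and at most 65.8% in the 11 adult ones, where Grin2c fills most of the rest.

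Across the 9 members in medulla, 1 was called higher and 2 lower at 9 weeks than at P8, where 12.1% of all genes tested were called higher and 19.0% lower. In CSC 0 were called higher and 1 lower, against 4.22% and 6.53% of all genes, and DESeq2 gave those counts in CSC too. From P8 to 5 weeks 1 member was higher and 1 lower in medulla (2.64% and 5.07% of all genes), and 2 were lower in CSC (2.95%). The median log2 change of the members from P8 to 9 weeks was -0.51 in medulla and -0.23 in CSC, beside -0.06 and 0.24 over all genes tested. These age contrasts share their P8 libraries, and the 5-week and 9-week ones are not independent of each other.

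Of the AMPA genes, Gria2, which encodes the subunit that limits calcium entry, was at 288, 299, 335 and 210 CPM in the P8 libraries labelled medulla. In 9-week medulla it was at 171, 269, 105, 208 and 278 CPM in WT mice and 164, 205, 137, 242 and 217 CPM in SCA7 mice. All WT and SCA7 values at 9 weeks lay below the 3 highest P8 values, and the lowest P8 value lay within the adult range. The 3 highest P8 values came from deep libraries and the lowest from a shallow one. Deep medulla libraries were at 217 to 278 CPM at 9 weeks (n = 4) and at 219 and 378 CPM at 5 weeks. The log2 change from P8 to 9 weeks was -0.51 in medulla (SE 0.20, edgeR adjusted p = 0.0554) and -0.57 in CSC (adjusted p = 0.147). In medulla Gria2 passed without 9-week WT mouse 5 (-0.57, adjusted p = 0.0475) or without P8 SCA7 mouse 2 (-0.61, adjusted p = 0.0397). From P8 to 5 weeks in CSC it fell by 1.19 (SE 0.29, adjusted p = 0.0191), from 328, 224 and 198 CPM to 95.9 and 243 CPM in WT and 90.3 and 78.2 CPM in SCA7 mice, a call made in 9 of 11 other fits (adjusted p of 7.09e-04 to 0.599) and with the other P8 label (-1.18, adjusted p = 0.0184). It missed the threshold without 5-week SCA7 mouse 2 (adjusted p = 0.0906) or P8 SCA7 mouse 1 (0.0808).

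Gria4, a subunit with fast kinetics, had a log2 change of -0.65 from P8 to 9 weeks in medulla (SE 0.31, edgeR adjusted p = 0.120) and -0.23 in CSC (adjusted p = 0.750). Gria1, the subunit whose tail carries sites used in synaptic plasticity, had -0.28 and -0.64 (adjusted p = 0.406 and 0.167). Gria3 had 0.14 and 0.51 (adjusted p = 0.687 and 0.544). In the deep medulla libraries Gria3 was at 73.9 to 84.5 CPM at P8 (n = 3) and at 94.3 to 125 CPM in adults (n = 6), with no overlap. Fitted on deep libraries alone, Gria3 passed the threshold at 0.40 (adjusted p = 0.00664) and Gria4 at -0.40 (adjusted p = 0.00680), while the fits with the other P8 label left Gria3 at 0.57 (adjusted p = 0.266) and Gria4 at -0.34 (adjusted p = 0.673). Without the medulla library of 9-week SCA7 mouse 2, which held no count of Gria4, that gene passed at -0.41 (edgeR adjusted p = 0.0353). Grin1 had 0.20 in medulla (SE 0.14, adjusted p = 0.314) and -0.21 in CSC (adjusted p = 0.684). With the other P8 label the 4 AMPA genes and Grin1 had log2 changes of -0.42 to 0.57 in medulla and -0.60 to 0.14 in CSC, none past the threshold, and Grin1 turned to -0.03 and 0.08.

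**Figure D4:**
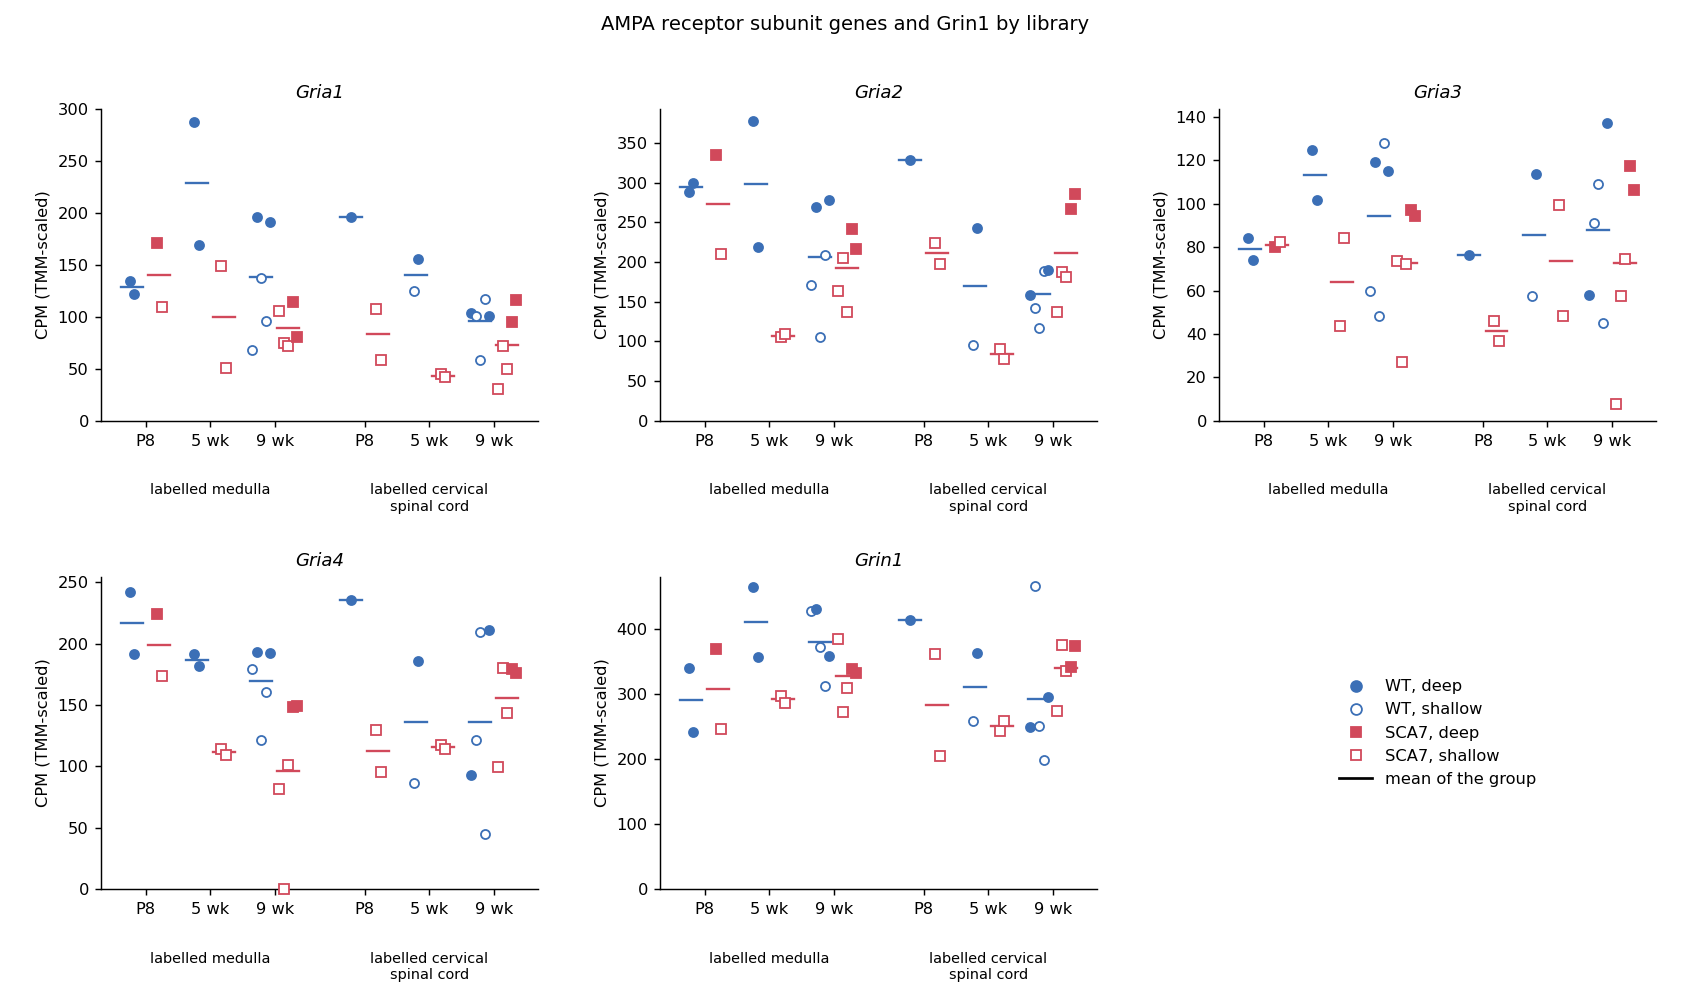
AMPA receptor genes and Grin1 in every library, in TMM-scaled CPM on the vertical axes, by age and tissue label, with genotype and depth marked by the symbols. Grin1 lies between 198 and 467 CPM in all 35 libraries, and the adult and P8 ranges of the AMPA genes overlap.

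Between 5 and 9 weeks no member was called in edgeR in either tissue, where 0% of all genes in medulla and 0.0201% in CSC were called. At an unadjusted p under 0.05 there were 0 members in medulla and 1 in CSC (Gria2, 0.62, adjusted p = 0.990), and DESeq2 and limma-voom called 0. The change from P8 to 9 weeks was also compared between SCA7 and WT mice. No member differed in edgeR in medulla (0.0237% of all genes) or CSC (0.00503%), with 1 and 0 members at an unadjusted p under 0.05, 0 by DESeq2 and 1 in each tissue by limma-voom. The member at an unadjusted p under 0.05 was Grin2d, whose fall in medulla was larger in SCA7 mice by 1.19 on the log2 scale (SE 0.44, edgeR adjusted p = 0.399).

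Genes that work with these receptors were also called between P8 and 9 weeks, where the shares of all genes called were those given above, 12.1% higher and 19.0% lower in medulla and 4.22% and 6.53% in CSC. Of 12 AMPA auxiliary subunits, 8 fell and 1 rose in medulla (median -0.95) and 6 fell in CSC (median -1.62). Those that fell included Cnih2, which slows AMPA receptor closing (-1.81 and -2.42), Cacng4, a transmembrane AMPA receptor regulatory protein (-1.48 and -1.93), and Gsg1l (-1.19 and -2.55). Of 9 kainate and delta receptor genes, 5 fell in medulla and 4 in CSC, with Grik1 at -0.96 and -2.25 and Grik3 at -1.13 and -2.12. Of 17 scaffold and trafficking genes, 7 fell and 2 rose in medulla and 9 fell in CSC. Grip1, which binds the tails of GluA2 and GluA3, was at -1.48 and -1.40, and Shank3 at -0.91 and -1.60. With the other P8 label 5 auxiliary genes fell in medulla and 8 in CSC, 4 and 6 kainate and delta genes and 8 and 7 scaffold genes, while 1 kainate or delta gene rose in medulla and 2 scaffold genes in CSC, and the 7 genes named here fell in both tissues.

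Among the genes tied to NMDA receptors, Grin3a, whose product lowers calcium entry, fell in both tissues, by 1.28 in medulla, while Grin3b rose by 1.20 in medulla. Dao, the enzyme that degrades the co-agonist D-serine, rose by 3.83 in medulla. Dao and Grin3b were also called higher in CSC, where both had 0 counts in the 2 shallow P8 libraries, so no size is given. Srr, which makes D-serine, fell in medulla (-0.98). Adarb1, the enzyme that edits the GluA2 message, rose in medulla (1.02) and was at 0.08 in CSC with an adjusted p of 0.893. Slc17a7, the vesicular glutamate transporter VGLUT1, rose by 6.48 in the medulla contrast and fell by 5.23 in the CSC contrast, so its sign followed the tissue label. With the other P8 label Slc17a7 was at 1.65 (adjusted p = 0.0397) and -0.22 (adjusted p = 0.852), and the rises of Grin3b and Adarb1 in medulla were not called (adjusted p = 0.104 and 0.185).

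At 9 weeks 1 member, Grin2c, passed the test between the tissues. Grin2c was 2.47-fold lower in CSC than in medulla, with mouse as a block, at -1.31 on the log2 scale (SE 0.14, edgeR adjusted p = 6.50e-06). It was lower in CSC in 9 of 10 mice, as the values above show, and the exception was WT mouse 1, with 34.2 CPM in a shallow medulla library and 36.1 CPM in a deep CSC library. It was also lower in CSC in 4 of 4 mice at 5 weeks. The call held in 11 of 12 other fits and without each mouse in turn (-1.44 to -1.20, adjusted p of 5.49e-08 to 8.53e-04), and the alternative that lost it used the 3 P8 mice with both tissues, at 0.59 (adjusted p = 1).

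In the deep adult libraries Grin2c was at 44.0 to 102 CPM in medulla (n = 6) and 16.3 to 50.1 in CSC (n = 5), and its share of the GluN2 genes per kilobase at 9 weeks was 52.2% to 61.6% in medulla (n = 4) and 30.9% to 49.7% in CSC (n = 4). Of the 9 members, 0 were higher in CSC and 1 lower, beside 1.78% and 2.47% of all genes. The other 8 had log2 differences of -0.74 (Grin2a, SE 0.33, adjusted p = 0.316) to 0.13 (Gria4), and limma-voom, which called 6.68% of all genes lower, called Grin2a too (-0.75, adjusted p = 0.0326). Grin2d, at -0.09 (SE 0.13, adjusted p = 0.921), had an SE no larger than that of Grin2c. The median difference was -0.18 for the members and 0.01 for all genes tested.

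Genes of cerebellar neurons moved with the tissue difference of Grin2c. All 8 markers listed for these cells were lower in CSC than in medulla at 9 weeks, among them Gabra6 (-6.25), Cbln3 (-3.21) and Zic1 (-1.19). Their summed level was 151 to 593 CPM in 9-week medulla and 53.4 to 108 CPM in 9-week CSC, with none of the 8 at 0 in every library of a group. Gabra6, a gene of cerebellar granule cells, was at 0 to 0.194 CPM in 9-week CSC. Their part in the Grin2c difference was not tested. Among the receptor partners, Gsg1l (-1.37) and Shisa9 (-0.77) were lower in CSC of 12 AMPA auxiliary genes, Neto2, Grik1 and Grik3 of 9 kainate and delta genes, and Homer1 of 17 scaffold genes, while Grin3b was higher (1.17).

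The tissue difference of Grin2c had no common direction in the P8 mice. In the 3 P8 mice with both tissues, Grin2c was at 6.81, 6.93 and 18.3 CPM under the medulla label. Under the CSC label it was at 17.2, 5.41 and 7.32 CPM, lower in 2 mice and higher in 1. The 2 lower values rest on 2 and 1 counts in shallow libraries. In the mouse with the higher value both libraries were deep, with 718 counts under CSC and 289 under medulla. The difference at 9 weeks minus that at P8 was -2.34 (SE 0.37, edgeR adjusted p = 3.29e-04). It was the only member called lower in this test, where 2.34% of all genes were. With the P8 tissue labels exchanged the value was -0.28 (SE 0.36, adjusted p = 1). No member had a tissue difference that was called different between SCA7 and WT mice by edgeR at 9 weeks, where 2.78% of all genes were. There was 1 at an unadjusted p under 0.05 (Grin2c, -0.52, SE 0.21, edgeR adjusted p = 0.282), 0 by DESeq2 and 3 by limma-voom.

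Between SCA7 and WT mice at 9 weeks, 1 member passed the test in CSC and 0 in medulla. Grin2c in CSC was 2.37-fold lower in SCA7 mice, at 12.5 ± 5.14 CPM against 33.8 ± 7.27 CPM (SD, n = 5 each), and all 5 SCA7 values listed above lay below all 5 WT values. The log2 change was -1.24 (SE 0.32, edgeR adjusted p = 0.0356). It passed in 3 of 9 other fits (-1.28 to -0.92, adjusted p of 0.00875 to 0.237, the last by DESeq2), and it missed the threshold without WT mouse 1 or 5 or without SCA7 mouse 1, 3, 4 or 5 (adjusted p up to 0.125). In the 4 deep libraries it was at 36.1 and 40.0 CPM in WT and 16.3 and 18.8 CPM in SCA7 mice, with the same direction and an adjusted p of 0.151. With 1 of 9 members called lower, 3.54% of all genes were.

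In 9-week CSC the other 8 members were not called. Gria2 had a log2 change of 0.42 (adjusted p = 0.373), with values of 158, 142, 117, 189 and 190 CPM in WT and 137, 188, 181, 267 and 285 CPM in SCA7 mice that overlap. Grin2b had -1.15 (SE 0.54, adjusted p = 0.296) where shallow libraries of all groups hold 0 to 7 counts. Grin1 had 0.23, Gria4 0.19, Gria3 -0.15, Gria1 -0.30 and Grin2d -0.35, with adjusted p of 0.547 to 0.920. In the deep CSC libraries Gria2 was at 158 and 190 CPM in WT and 267 and 285 CPM in SCA7 mice. Grin1 was at 250 and 296 CPM in WT and 342 and 374 CPM in SCA7 mice there. Both were thus higher in SCA7 mice while Grin2c was lower, and deep libraries alone called 0 members. The median over the members was -0.15, beside -0.02 over all genes tested, and scaling by library totals moved the latter to 0.28.

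In 9-week medulla no member was called by edgeR (6.97% of all genes were, 2.41% as lower), while 3 had an unadjusted p under 0.05 and DESeq2 called 0. Grin2d had the values given above, in which all 5 SCA7 values (25.5 ± 18.6 CPM, SD) lay below all 5 WT values (62.8 ± 11.3 CPM), with a log2 change of -0.81 (SE 0.33, adjusted p = 0.185). The 3 lowest SCA7 values came from shallow libraries with 1 to 2 counts of the gene, and leaving out 1 library at a time gave -1.10 to -0.43 (adjusted p of 0.0678 to 0.336). Grin2c had 42.2 ± 21.1 CPM in SCA7 and 86.5 ± 49.9 CPM in WT medulla, which overlap, and -0.88 (SE 0.38, adjusted p = 0.209). Gria1 was at 68.5, 197, 138, 96.2 and 192 CPM in WT and 106, 75.02, 72.1, 114 and 80.7 CPM in SCA7 medulla, with -0.61 (SE 0.26, adjusted p = 0.207), and the lowest WT value lay below all SCA7 values.

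The 4 deep 9-week medulla libraries were tighter. Gria1 was at 197 and 192 CPM in WT and 114 and 80.7 CPM in SCA7 mice, a log2 change of -0.95 (SE 0.14, edgeR adjusted p = 0.00533). Grin2c was at -0.72 (SE 0.11, adjusted p = 0.00692), Grin2d at -0.41 (SE 0.08, adjusted p = 0.0149) and Gria4 at -0.33 (SE 0.07, adjusted p = 0.0245), each with both SCA7 values below both WT values. These 4 calls of 9 members rest on 2 mice a genotype, in a fit that called 8.88% of all genes lower. Both SCA7 values also lay below both WT values for Gria2, Gria3 and Grin1, which were not called, but not for Grin2a and Grin2b. Limma-voom with sample weights, which called 6.78% of all genes lower, called Gria1 (-0.84) and Grin2c (-0.69) over all 10 libraries, and without the library of SCA7 mouse 2 that stood apart Grin2c was at -0.73 (adjusted p = 0.0267). Over the other fits the adjusted p ran from 0.00213 to 0.848 for Gria1, 0.00692 to 0.683 for Grin2c and 0.0149 to 0.672 for Grin2d.

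Marker genes of glia and of neurons moved with genotype in the same libraries. Of 10 astrocyte markers, 5 were lower in SCA7 mice in medulla and 5 in CSC, led by Gja1 (-1.41) and Slc1a2 (-2.22) in medulla and by Gfap (-2.28) and Aldoc (-0.91) in CSC. Their summed level was 4135 to 5643 CPM in WT and 1838 to 3697 CPM in SCA7 medulla, and 5457 to 9298 CPM in WT and 2478 to 3366 CPM in SCA7 CSC, with no overlap in either tissue and no marker at 0 throughout a group. Cerebellar markers were lower in SCA7 medulla for 4 of 8, at a summed 171 to 593 CPM in WT and 151 to 211 CPM in SCA7 mice, and for none in CSC, at 60.9 to 108 and 53.4 to 108 CPM. Of 10 oligodendrocyte markers 5 were lower in medulla and 9 in CSC, where the summed level had a median of 78943 CPM for WT and 21128 for SCA7 libraries with ranges that overlap. Oligodendrocyte precursor markers were lower for 2 of 8 in each tissue, and their sum did not overlap in CSC, at 603 to 795 CPM for WT and 324 to 490 for SCA7. Of 7 microglia markers 3 were lower in medulla, at a summed 171 to 227 CPM for WT and 98.1 to 135 for SCA7 without overlap, and 1 in CSC, at 162 to 331 and 72.2 to 164 CPM. Of 12 neuron markers 1 was lower in medulla and 0 in CSC, but their sum did not overlap in medulla, at 10674 to 12969 CPM for WT and 7427 to 10143 for SCA7, while it did in CSC, at 7322 to 14830 and 9419 to 11956 CPM. The part of these cells in the member values was not tested, and in tissue RNA fewer cells of a type cannot be told from less RNA per cell. Of the receptor partners, Dao was lower in SCA7 mice in both tissues (-2.86, adjusted p = 1.40e-05, and -2.58, adjusted p = 0.00978), and no auxiliary, kainate, delta, scaffold or transporter gene was called in either.

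At 5 weeks no member was called by edgeR between genotypes in medulla (0.846% of all genes) or CSC (0.728%), with 1 and 2 members at an unadjusted p under 0.05 and 0 by DESeq2 and limma-voom. The 2 medulla libraries of WT mice were deep there and those of SCA7 mice were not, so genotype and depth cannot be told apart. Gria2 was at 378 and 219 CPM in WT and 105 and 110 CPM in SCA7 medulla, at -1.27 (SE 0.37, edgeR adjusted p = 0.279). The median log2 change over all genes in that comparison was -0.43 with the size factors of DESeq2 and -0.70 with library totals. Gria1 was at 125 and 156 CPM in WT and 45.2 and 42.1 CPM in SCA7 CSC, at -1.61 (SE 0.52, adjusted p = 0.195). At P8, 0 members and 0% of all genes were called between genotypes in the libraries labelled medulla, with 1 member at an unadjusted p under 0.05 (Grin2d, 0.49, adjusted p = 1) and 0 by DESeq2 and limma-voom. The lone P8 WT library labelled CSC left that comparison without a WT replicate, and no test was made.

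Over the 15 deep libraries, the genes whose levels ran most like those of Grin2c were Zfp385a, Tmem184b and Kcnj11, with Pearson r of 0.975, 0.967 and 0.963 among 10655 genes. For Grin2d they were Fam171a2, Mex3d and Agbl5 (0.989, 0.988 and 0.985). The most alike gene had an r of 0.922 for Gria1 (Ntrk2), 0.961 for Gria2 (Cacna2d1), 0.971 for Gria3 (Nckap1), 0.968 for Gria4 (Cntn1), 0.966 for Grin1 (Papd7), 0.861 for Grin2a (Rab11a) and 0.902 for Grin2b (Srsf9). These values describe 15 libraries that share tissues, ages and mice.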

How the data were processed

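RNA-seq was done on medulla and CSC tissue of SCA7 and WT mice, and 35 libraries were grouped by the tissue, age, genotype and mouse of their labels. The authors mapped reads to the mouse genome (mm10 in the submitters' processing notes, GRCm38 in the study's methods), kept uniquely mapped reads and deposited raw counts per gene symbol for each library, with no normalization, and the study tested them with DESeq2. Strand use in counting is not given in the sources used here. From these counts, genes with at least 10 counts in 1 library of a comparison were kept, scaled by TMM and tested with edgeR 4.0.16 quasi-likelihood fits in R 4.3.3, with adjusted p-values over all genes kept. Genotype was tested within tissue and age, age within tissue over both genotypes, and tissue at 9 weeks and by age with the mouse, which the labels give, as a block. The smallest chi-square per degree of freedom over 21 pairs of replicates was 1.06, in a pair of shallow libraries. At that depth counting error is too large for the value to exclude a repeat. The labels, which name separate mice, were followed, and no library was counted as a repeat.

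Alternatives were DESeq2 1.42.0, limma 3.58.1 (voom with sample weights), bias-adjusted edgeR fits, other scalings and filters, deep libraries only (over 1000000 counts), shallow libraries only, a replicate block, other sets of samples and leaving out each library. Fits with the P8 libraries of the other label, both tissues averaged, deep WT libraries alone and exchanged P8 labels were chosen after seeing the data. The average over both tissues had no mouse term in edgeR and took the mouse as a correlation in limma-voom. On simulated counts with 200 changed genes, wrong calls were 9.85% and 11.1% of those between genotypes in 9-week medulla and CSC, 16.1% and 2.90% from P8 to 9 weeks in medulla and CSC and 6.25% between tissues, against the nominal 5%. Log2 changes of 1 were recovered for 27.8%, 24.5%, 60.8%, 17.5% and 68.7% of genes in that order, and of 2 for 94.8%, 99.0%, 94.8%, 52.1% and 98.0%. Named genes are the 9 members, up to 4 called genes per list with the smallest adjusted p, and the 3 genes most alike in log2 CPM (prior count 2, mean of at least 10 CPM). The members and lists were chosen with earlier results of these data known. Shares and floors for 0 counts (3 counts) cover counting error only. Exon lengths are from GENCODE, and promoter letters from RefSeq (GRCm38.p6), whose table held 5 of the 9 members. Replicates are separate mice. One gene of the position marker list is not reported here.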

Additional observations from a re-analysis of the deposited data

Results flagged for a closer look

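Gria1 in the CSC library of 9-week WT mouse 3, a shallow library, was at 58.7 CPM, far from the other 4 WT mice at 101 to 117 CPM. Grin2a in CSC of 9-week WT mouse 5 was at 3.07 CPM, from 111 counts in a deep library, while the other 4 were at 0 to 0.558 CPM and the 0 values came from shallow libraries. Grin2b in medulla of 9-week SCA7 mouse 2 was at 47.7 CPM, from 7 counts in the library that stood apart in composition, while the other 4 were at 0 to 9.11 CPM. These 3 were found in 36 groups of 5 libraries, where chance alone gives about 1 in 20 groups. The tissue difference of Grin2c at 9 weeks differed from that at P8 by -2.34 on the log2 scale in a test of the difference itself, and by -0.28 with the P8 tissue labels exchanged.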

How the results depend on the processing

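Counts of members called out of 9 moved by more than 1.5 times under these settings. Between genotypes in 9-week medulla (0) limma-voom called 2 and deep libraries alone 4. In 9-week CSC (1) the count was 0 with DESeq2, bias-adjusted edgeR, a strict filter of 10 counts in each library, library totals, no filter, the deep or the shallow libraries alone and the replicate block. In 5-week medulla (0) the replicate block called 2, Gria1 and Gria2. From P8 to 9 weeks in medulla (3) limma-voom called 6, deep libraries 5 and the strict filter 1. In CSC (1) limma-voom called 3, the other P8 label 2, both tissues averaged 3 and 4 by limma-voom, and 0 were called with the strict filter, the replicate block, WT alone, SCA7 alone and deep WT alone. From P8 to 5 weeks in medulla (2) the count was 1 with DESeq2, bias-adjusted edgeR, library totals, the strict filter, no filter, WT alone and the other P8 label, and 0 with SCA7 alone. In CSC (2) it was 4 with limma-voom, 1 with the strict filter, the replicate block and SCA7 alone, and 0 with no filter, WT alone and deep WT alone. For the age change between genotypes (0) limma-voom called 1 in each tissue. For tissue at 9 weeks (1) limma-voom called 2, and the strict filter and the P8 mice 0. For the tissue difference between genotypes (0) limma-voom called 3 and deep libraries 1. For the tissue difference by age (1) limma-voom called 4, deep libraries 3, and bias-adjusted edgeR, the strict filter and exchanged P8 labels 0. The strict filter tests fewer members, deep, shallow and single-genotype fits use fewer libraries, and for the rest the cause was not tested.

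Leaving out 1 library gave 0 to 1 calls between genotypes in 9-week medulla and CSC, 0 to 1 and 0 to 2 at 5 weeks in medulla and CSC and 0 to 0 at P8. It gave 2 to 4 and 0 to 1 from P8 to 9 weeks in medulla and CSC, 1 to 2 and 0 to 2 from P8 to 5 weeks, 0 to 0 from 5 to 9 weeks, and 1 to 1 between tissues. Without CSC WT mouse 5, Grin2a passed between genotypes (1.93, adjusted p = 0.00370). The direction reversed for Grin2b from P8 to 9 weeks without P8 medulla SCA7 mouse 1 (4.83; without another library its lowest was -1.25) and for Grin2c between tissues in the P8 mice (0.59). The replicate block, with numbers that labels repeat between genotypes, called 0 members between genotypes in 9-week medulla and CSC, 0 in 5-week CSC and at P8, 2 and 0 from P8 to 9 weeks and 2 and 1 from P8 to 5 weeks in medulla and CSC, and 0 from 5 to 9 weeks. Same-numbered samples of the 2 genotypes correlated from -0.828 to 0.942. Medulla and CSC of the same mouse correlated from -0.752 to 0.951, so this measure could not tell whether the numbers pair the mice. Without mouse as a replicate block, the tissue tests called 1, 0 and 1, as with it.

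Library totals moved the median of all genes between genotypes in 9-week CSC from -0.02 to 0.28 and the share of calls that were higher from 29.98% to 54.9%. In 9-week medulla that share was 65.5%, and 22.5% with DESeq2, which left 7618 genes with an adjusted p, and in CSC from P8 to 5 weeks it was 44.8%, and 24.9% with library totals. Depth limits Grin2a and Grin2b in shallow libraries. Deep-only fits were not run where a group had no deep library.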
